A study of Mus musculus with 28 samples.

Results

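The Iroquois homeobox genes *Irx1* to *Irx6* were read in the H3K4me3 and H3K27me3 profiles of A2a and D1 neurons. All 6 genes of the family were taken by name, out of 55450 annotated genes of which 21951 are protein-coding. They lie in 2 clusters of 3 genes. The IrxA cluster on chromosome 13 (chr13:71957921-73269608 on mm10, also called GRCm38) holds *Irx1*, *Irx2* and *Irx4* over 1312 kb. The IrxB cluster on chromosome 8 (chr8:91798525-92680956) holds *Irx3*, *Irx5* and *Irx6* over 882 kb. Each cluster was read whole, with 100 kb on either side.

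Irx proteins are homeodomain transcription factors of the TALE class, whose homeodomain carries an extra loop. They pattern the neural tube, heart, limb and other organs of the embryo, and a duplication of one ancestral cluster gave the pairs *Irx1* and *Irx3*, *Irx2* and *Irx5*, and *Irx4* and *Irx6*. H3K27me3 is laid down by Polycomb repressive complex PRC2 and lies over developmental genes that are kept silent, often as long domains. H3K4me3 marks the start of active or poised genes, and promoters that carry both marks are called bivalent.

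The profiles came from CUT&RUN (CnR), in which an antibody guides a nuclease to the chromatin that carries a mark, after INTACT, which pulls tagged nuclei from tissue. A2a neurons are the striatal medium spiny neurons (MSNs) of the indirect pathway and express the adenosine receptor gene *Adora2a*, and D1 neurons are those of the direct pathway and express the dopamine receptor gene *Drd1*. Nuclei of A2a neurons came from the striatum of Sun1-sfGFP;A2a-cre mice, and those of D1 neurons from Sun1-sfGFP;Drd1-cre mice, all of both sexes and on C57BL/6J. An age of about 8 weeks is given for the mice in the reporting summary and a wider range of weeks elsewhere, and the age of each group was not used here. Both lines carry the R26-CAG-LSL-Sun1-sfGFP allele, so the tag marks every cell in which the A2a or *Drd1* driver has ever been active, and the labels give no treatment. Of the 28 samples, 8 enter the lists read here, as 2 replicates for each cell type and mark, with the Abcam antibody for H3K4me3 and the Active Motif antibody for H3K27me3.

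Each of the 4 lists pools its 2 replicates, so no value has an error between mice and no difference between A2a and D1 was tested. The intervals given are 95% intervals for the counting of reads only, and reads of PCR copies left in a library are not independent molecules. The A2a list held 60191 islands with 22091634 reads over 301 Mb (11.0% of the genome) and the D1 list 45760 islands with 7878685 reads over 184 Mb (6.76%). Library totals are unknown, and the list-wide density was 73.4 reads per kb in A2a and 42.8 in D1, a ratio of 1.72. For H3K4me3 there were 22551 A2a peaks and 20080 D1 peaks. At marker genes of the opposite cell type the islands were long (*Adora2a* 45 kb in D1, *Drd1* 16.8 kb in A2a), while the cell's own markers held an island of at most 3.4 kb in A2a and 5.8 kb in D1, or none. All 8 of these markers had an H3K4me3 peak in both lists. Of 3 markers of both cell types, *Ppp1r1b* and *Bcl11b* had a peak and no island in both lists. The third, the GABA-synthesis gene *Gad1*, had no peak or island at its promoter in either. Of 12 markers of glia, 5 held an H3K4me3 peak in A2a and 3 in D1, against 58.2% and 55.8% of all protein-coding genes. An H3K27me3 island was at 4 of them in A2a and 2 in D1, against 21.6% and 15.3%. The part of glia in the results was not tested. The D1 H3K27me3 samples carry a source name that reads A2a and a title and cell type that read D1, and were taken as D1. The *Xist* promoter had a peak in A2a alone, and chromosome Y held 2 peaks in A2a and 7 in D1, so cell type and the sex of the pooled mice cannot be told apart.

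The sequence before 2 of the IrxA genes is shown first because these promoters carried H3K27me3 and no H3K4me3 peak and are rich in CpG, the dinucleotide at which H3K4me3 and Polycomb marks both gather. RefSeq promoter entries (GRCm38.p6) matched 3 of the 6 genes, *Irx2*, *Irx3* and *Irx4*. The stretches below end at the base before the annotated start of the gene, run 5′ to 3′ on the plus strand, and have each CG in capitals. CG reads the same on both strands.
Irx2, chr13:72628570-72628819: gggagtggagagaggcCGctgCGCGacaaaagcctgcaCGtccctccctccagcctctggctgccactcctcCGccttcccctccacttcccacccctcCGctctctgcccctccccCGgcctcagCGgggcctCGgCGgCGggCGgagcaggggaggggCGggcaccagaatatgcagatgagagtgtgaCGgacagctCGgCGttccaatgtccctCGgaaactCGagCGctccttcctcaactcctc
Irx4, chr13:73260247-73260478: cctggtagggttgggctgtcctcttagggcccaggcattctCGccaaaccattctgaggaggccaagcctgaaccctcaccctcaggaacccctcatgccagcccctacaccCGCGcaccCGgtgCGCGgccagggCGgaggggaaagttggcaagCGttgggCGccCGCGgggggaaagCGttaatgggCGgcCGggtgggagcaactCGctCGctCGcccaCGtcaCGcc

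In the 250 bases before the RefSeq start, *Irx2* held 19 CG, *Irx4* held 22 and *Irx3* held 13, against a median of 6 over 32851 promoter entries. For *Irx3* these bases (chr8:91801655-91801904) lie inside the gene as annotated in the rest of the text, downstream of the start used there. Of all entries, 19.7% held at least as many as *Irx2*, 14.8% as many as *Irx4* and 31.5% as many as *Irx3*. At least 1 CG was found in 92.1% of entries.

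All 6 Irx promoters lay in an H3K27me3 island in A2a and in D1. A promoter here runs from 2 kb upstream to 1 kb downstream of the annotated transcription start site (TSS), and an overlap of 1 bp was enough. Among all protein-coding genes, 21.6% had an island there in A2a, 15.3% in D1 and 14.3% in both. The Irx islands were also among the longest and densest of their lists. In A2a they were 27.2 to 57.4 kb long, where the median island was 3.6 kb, and in D1 18.8 to 35.8 kb, where the median was 3.0 kb. By number of reads, each stood at or above the 99.3rd percentile of its own list. The CpG content of these islands was 15.2 to 22.0 CG per kb in A2a and 16.5 to 31.4 in D1, against list medians of 8.57 and 8.46 and a genome mean of 8.26.

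*Irx1*, which takes part in patterning of the lung, limb and central nervous system, opened the IrxA cluster. It is a gene of 5.80 kb on the minus strand (ENSMUSG00000060969.9, chr13:71957921-71963723). Its A2a island ran over chr13:71946601-71989000 (42.4 kb) and held 6505 reads (interval 6348 to 6665), or 153 per kb. Its D1 island, chr13:71946801-71976400 (29.6 kb), held 2851 reads (2747 to 2958), or 96.3 per kb. Both islands took in the whole gene and stopped at nearly the same place downstream, 17.1 and 16.9 kb from the TSS. They differed upstream, where the A2a island reached 25.3 kb and the D1 island 12.7 kb. A second D1 island, chr13:71977201-71983400, lay further upstream under the A2a island. Extents here and below are those of the promoter island alone, and at each of the 6 genes D1 had 2 to 4 islands under the A2a island.

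*Irx2*, expressed in the developing hindbrain and cerebellum among other tissues, had the longest island of the family in both lists. The gene spans 5.38 kb on the plus strand (ENSMUSG00000001504.10, chr13:72628820-72634198). The A2a island, chr13:72607001-72664400 (57.4 kb), held 8445 reads (8266 to 8627), or 147 per kb. The D1 island, chr13:72615001-72650800 (35.8 kb), held 3575 reads (3459 to 3694), or 99.9 per kb. Ranked by the length of the longest promoter island, *Irx2* was 88th of 4752 protein-coding genes with one in A2a and 120th of 3352 in D1. The island ended 30.2 kb past the gene in A2a and 16.6 kb in D1, and began 21.8 and 13.8 kb upstream of the TSS.

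*Irx4*, known for its part in the ventricles of the heart, closed the cluster. It covers 9.13 kb on the plus strand (ENSMUSG00000021604.15, chr13:73260479-73269608). Its island began at the same base in both lists, 15.1 kb before the TSS, and ended 24.4 kb past the gene in A2a and 8.79 kb in D1. It held 7747 reads in A2a (7575 to 7921) over 48.6 kb and 3243 reads in D1 (3132 to 3357) over 33.0 kb. At 159 reads per kb it was the densest Irx island in A2a, and in D1 its 98.3 per kb stood between those of *Irx2* and *Irx1*.

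*Irx3*, a factor of the ventral spinal cord, heart and hypothalamus, had the shortest D1 island of the family. The gene spans 3.54 kb on the minus strand (ENSMUSG00000031734.13, chr8:91798525-91802067). The A2a island, chr8:91786001-91820800 (34.8 kb), held 5177 reads (5037 to 5320), or 149 per kb. The D1 island, chr8:91793201-91812000 (18.8 kb), held 1934 reads (1849 to 2022), or 103 per kb. That was the highest density of the 6 genes in D1, so *Irx3* combined the shortest and the densest promoter island there. Its lead over *Irx2* was not beyond counting error. The antisense gene *Irx3os* begins inside *Irx3* and lay in the same islands.

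*Irx5*, which acts with *Irx3* in the heart and is needed for some bipolar cells of the retina, was the 1 gene not wholly covered by its promoter island. It is 18.7 kb long on the plus strand (ENSMUSG00000031737.11, chr8:92357625-92376286). The promoter islands ended inside the gene, 13.0 kb past the TSS in A2a and 13.2 kb in D1, which was 5.69 and 5.49 kb before its 3′ end. A second island began close by and took in that end, so that 0.8 kb of the gene in A2a and 1.2 kb in D1 lay in no island. Upstream they reached 30.2 kb in A2a and 12.6 kb in D1, over part of the noncoding gene *Crnde*, which is transcribed away from *Irx5*. The A2a island (43.2 kb) held 5965 reads (5815 to 6118), or 138 per kb, and the D1 island (25.8 kb) held 2217 reads (2126 to 2311), or 85.9 per kb.

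*Irx6*, expressed in retinal bipolar cells, had the fewest reads of the family in both lists. The gene spans 6.67 kb on the plus strand (ENSMUSG00000031738.14, chr8:92674288-92680956). Its A2a island (27.2 kb) held 3670 reads (3552 to 3791), or 135 per kb. Its D1 island (22.8 kb) held 1614 reads (1536 to 1695), or 70.8 per kb. The islands shared their start, 13.7 kb upstream of the TSS, and ended 6.84 and 2.44 kb past the gene.

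**Figure D1:**
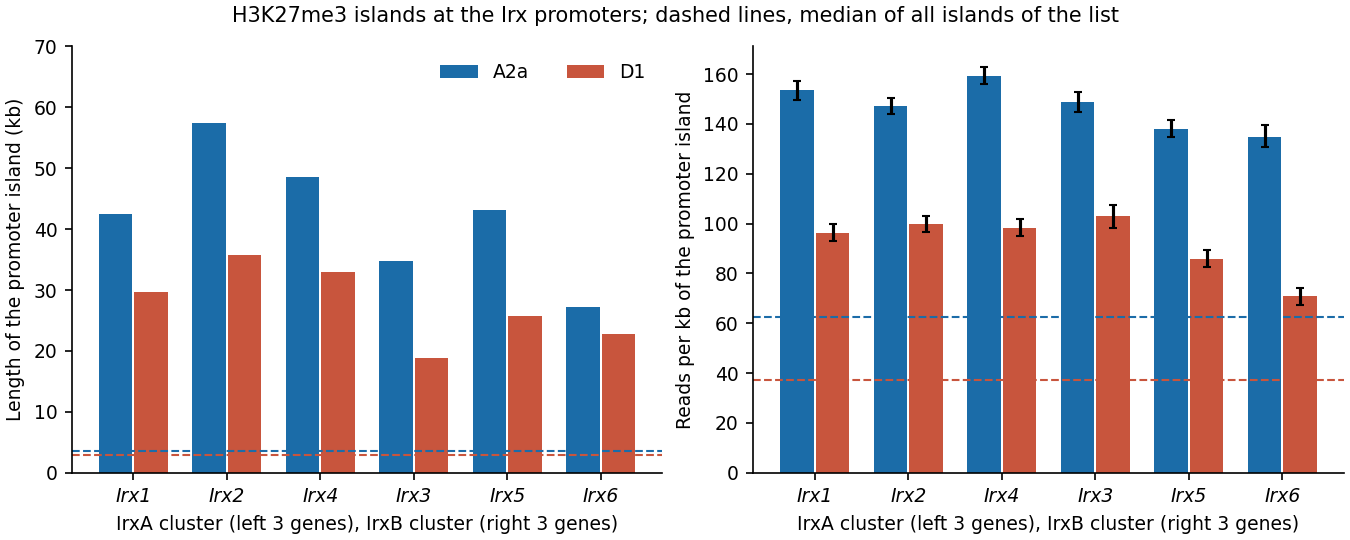
Length in kb (left) and reads per kb (right) of the H3K27me3 island at each Irx promoter in the pooled A2a (blue) and D1 (red) lists. Error bars on the right are 95% Poisson intervals for counting, and dashed lines are the medians of all islands of each list (3.6 and 3.0 kb, 62.5 and 37.2 reads per kb). Every Irx island is longer and denser than the median of its list.

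The order of the 6 genes by reads per kb was *Irx4*, *Irx1*, *Irx3*, *Irx2*, *Irx5* and *Irx6* in A2a, and *Irx3*, *Irx2*, *Irx4*, *Irx1*, *Irx5* and *Irx6* in D1. Neighbours in this order were mostly close. In A2a, *Irx1* and *Irx3* (ratio 1.03, counting interval 0.99 to 1.07), *Irx3* and *Irx2* (1.01, 0.98 to 1.05) and *Irx5* and *Irx6* (1.02, 0.98 to 1.07) did not differ beyond counting error, whereas *Irx4* stood above *Irx1* (1.04, 1.01 to 1.07) and *Irx2* above *Irx5* (1.07, 1.03 to 1.10). In D1 the first 4 genes followed each other by ratios of 1.02 to 1.03 whose intervals all held 1. *Irx5* then stood below *Irx1* (1.12, 1.06 to 1.18) and *Irx6* below *Irx5* (1.21, 1.14 to 1.29). *Irx5* and *Irx6* were thus last in both lists. The listed order of the other 4 differed, but most neighbours among them did not differ beyond counting error in either list. The place of *Irx3* in D1 also depends on the islands taken. Over all D1 islands under each A2a island it had 79.9 reads per kb, below *Irx2* (88.4), *Irx1* (87.1) and *Irx4* (86.3). Without replicates the spread between mice is unknown for each of these values.

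Set side by side, A2a had 2.27 to 2.69 times the reads of D1 in these islands, 1.19 to 1.85 times the length and 1.45 to 1.91 times the reads per kb. The lowest density ratio was that of *Irx3* (1.45, counting interval 1.37 to 1.52) and the highest that of *Irx6* (1.91, 1.80 to 2.02). The ratio over the whole lists was 1.72. With only the D1 island at the promoter taken, 5 of the 6 genes lay below it and *Irx6* above. Each A2a island overlapped 2 to 4 D1 islands, and the place against 1.72 depends on which are taken. Over all D1 islands under it, the D1 density was lower at all 6 genes, at 65.5 (*Irx6*) to 88.4 (*Irx2*) reads per kb. At *Irx3* it was 79.9 in place of 103. The density ratios were thus higher on that choice and the read ratios lower. Most genes then lay above 1.72, with *Irx2* below it. The direction depended on the scale. As reads per 1000000 island reads of its own list, D1 was the higher at all 6 genes, by 1.04 times at *Irx5* to 1.23 times at *Irx6* (205 against 166). Relative to the median density of its list, an Irx island stood at 2.16 to 2.55 times that median in A2a and 1.90 to 2.76 times in D1.

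The D1 islands lay inside the A2a islands. For 5 genes the D1 island was contained whole, and for *Irx5* 99.2% of it was. In the other direction the D1 island took up 54.0% (*Irx3*) to 83.8% (*Irx6*) of the A2a island. The remainder was partly in D1 islands as well, since each A2a island overlapped 2 to 4 D1 islands, which together covered 70.4% (*Irx2*) to 96.3% (*Irx6*) of it. What the A2a list gives as 1 domain was therefore in several pieces in the D1 list.

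H3K4me3 was found at few of these promoters. A peak overlapped the promoter of 2 of 6 Irx genes in A2a and 1 of 6 in D1, against 58.2% and 55.8% of all protein-coding genes. Since all 6 promoters held an island, the same counts carried both marks, against 9.53% of protein-coding genes in A2a and 5.56% in D1. *Irx1*, *Irx2*, *Irx4* and *Irx6* had no peak in either list, and at *Irx1* the nearest summit was 505 kb away in both. The counts depend on the window. With 1 kb on each side of the TSS, 1 promoter had a peak in A2a and 0 in D1.

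At *Irx3* the A2a list held a peak over the first part of the gene, chr8:91801126-91801757, with its summit 0.613 kb downstream of the TSS. Its enrichment was 6.45-fold over local background with a −log10 q of 16.2, which put it at the 28.7th percentile of the A2a list by that measure. No D1 peak overlapped it, and the nearest D1 summit lay 472 kb from the *Irx3* TSS. Of the 1084 A2a peaks within 2 units of this −log10 q, 73.2% overlapped a D1 peak. The peak had 109 CG per kb, at the 99.3rd percentile of A2a peaks.

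The peak in the *Irx5* promoter window sat at the start of *Crnde*. Its A2a summit (chr8:92356072) was 1.55 kb upstream of the *Irx5* TSS and 0.048 kb inside *Crnde*, a noncoding gene on the opposite strand. It was 8.05-fold enriched with a −log10 q of 33.8 in A2a (40.6th percentile) and 6.87-fold with 22.5 in D1 (35.9th percentile). The peak thus recurred in both lists, in the lower part of each by −log10 q, and its position did not assign it to *Irx5* rather than *Crnde*.

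The other peaks of the clusters lay away from annotated starts. In IrxA, a peak at chr13:73116960-73118035 was 8.01-fold enriched in A2a and 7.60-fold in D1, and its A2a summit was 116 kb from the nearest annotated TSS of any gene. A second at chr13:73160025-73160854 was 6.84-fold enriched in A2a and 6.42-fold in D1, with its A2a summit 72.9 kb from the nearest TSS. Both lay between *Irx2* and *Irx4* within H3K27me3 islands of 2.80 to 7.60 kb, shorter than those at the Irx promoters. In IrxB, a peak at chr8:92460039-92461177, between *Irx5* and *Irx6*, was 9.94-fold enriched in A2a and 6.86-fold in D1, with its A2a summit 5.07 kb from the start of the noncoding gene *Gm45336*. A further peak, chr13:72639549-72640157, 10.8 kb from the *Irx2* TSS and inside the long *Irx2* island, was in the A2a list alone (4.69-fold, −log10 q 8.63). Of the 2251 A2a peaks within 2 units of that −log10 q, 40.5% overlapped a D1 peak.

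The sequence around these A2a summits is shown because the peaks differ in CpG content although all lie in H3K27me3 islands. Each stretch holds the summit with 50 bases on either side, from GRCm38.p6 on the plus strand, with CG in capitals.
Crnde start near Irx5, chr8:92356022-92356122: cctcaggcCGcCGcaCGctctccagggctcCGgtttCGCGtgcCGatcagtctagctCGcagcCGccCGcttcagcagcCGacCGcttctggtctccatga
Between Irx5 and Irx6, chr8:92460650-92460750: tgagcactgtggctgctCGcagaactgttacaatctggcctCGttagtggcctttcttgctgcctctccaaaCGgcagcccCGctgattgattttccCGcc
Downstream of Irx2, chr13:72639597-72639697: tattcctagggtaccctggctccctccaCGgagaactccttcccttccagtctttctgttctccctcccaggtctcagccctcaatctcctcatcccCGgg
Between Irx2 and Irx4, first, chr13:73117382-73117482: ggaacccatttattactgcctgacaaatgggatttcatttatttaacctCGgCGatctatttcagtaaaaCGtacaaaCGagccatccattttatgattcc
Between Irx2 and Irx4, second, chr13:73160442-73160542: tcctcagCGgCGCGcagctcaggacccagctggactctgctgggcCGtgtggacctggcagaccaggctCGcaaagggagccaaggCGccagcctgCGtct

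Over the whole A2a peaks, the 2 other peaks of IrxB held 83.4 CG per kb at the *Crnde* start and 94.8 between *Irx5* and *Irx6*, at the 95th and 97.9th percentiles of the list. The 3 peaks of IrxA held 31.6 to 50.9 per kb, between the quartiles of the list (21.2 and 58.0). The summit stretch of the first peak between *Irx2* and *Irx4* was 37.6% G or C, and that of the second 69.3%.

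**Figure D2:**
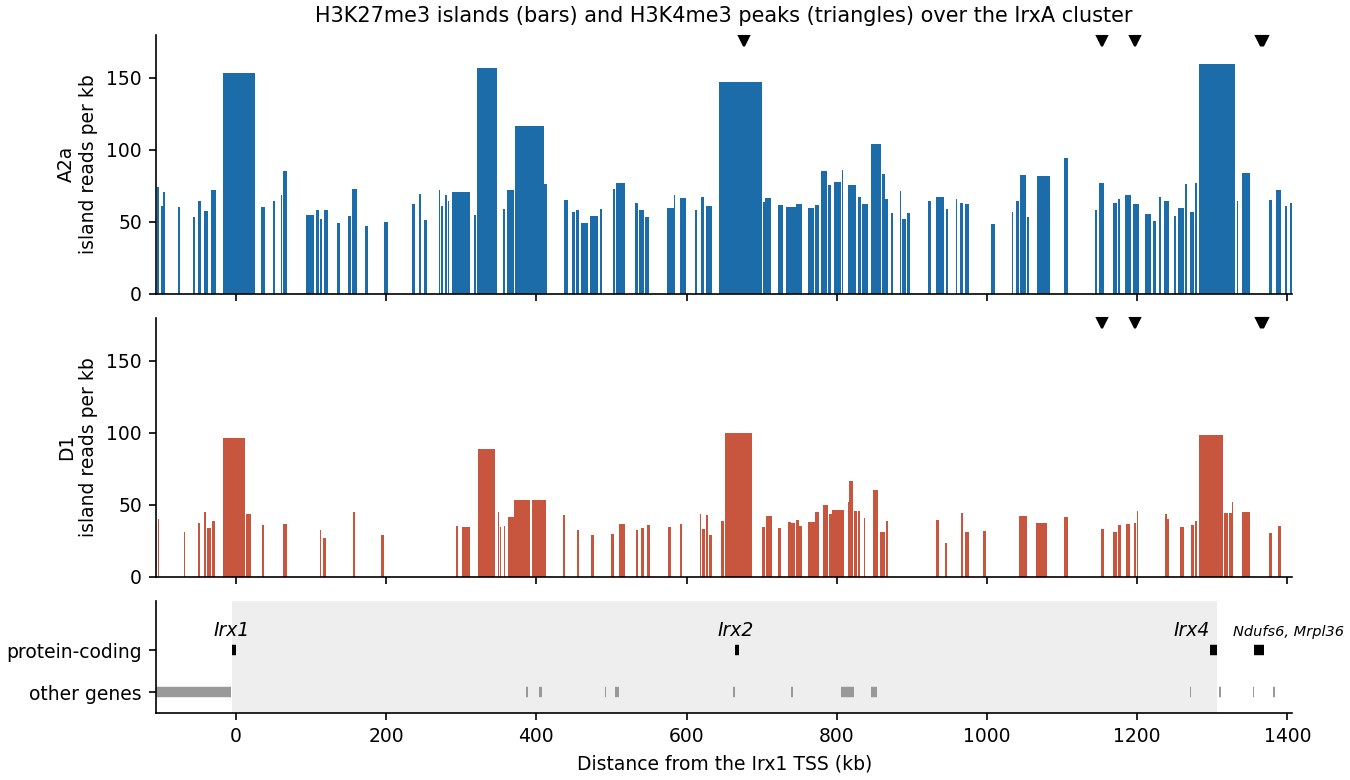
H3K27me3 islands (bars, height in reads per kb) and summits of H3K4me3 peaks (triangles) over the IrxA cluster and 100 kb on each side, against distance in kb from the Irx1 TSS, for the pooled A2a (top) and D1 (middle) lists. The lower panel gives protein-coding genes in black and other genes in grey, with the cluster shaded. The islands over Irx1, Irx2 and Irx4 and 1 island between Irx1 and Irx2 are the densest of the region in both lists (147 to 159 reads per kb in A2a, 88.4 to 99.9 in D1).

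Over the whole clusters, the gene islands included, islands covered much of the span. In IrxA they took up 52.2% of the span in A2a, as 96 islands, and 33.2% in D1, as 74 islands. In IrxB they took up 67.7% in A2a, as 64 islands, and 48.8% in D1, as 72 islands. Coverage of IrxB exceeded that of IrxA in both lists, and both clusters exceeded the genome share of their list. Mean density over the covered part was 86.3 reads per kb (85.6 to 87.0) in IrxA and 88.7 (87.9 to 89.4) in IrxB in A2a, and 53.6 (52.9 to 54.3) and 48.4 (47.7 to 49.0) in D1. The A2a to D1 ratio of these densities was 1.61 in IrxA and 1.83 in IrxB, on either side of the list-wide 1.72. Over base pairs that are islands in both lists it was 1.78 and 1.96, for which no list-wide value is given. The place of IrxA against 1.72 thus depends on the base pairs taken. Per 1000000 island reads of each list the direction turned here too, with 2674 in A2a and 2962 in D1 for IrxA, and 2399 and 2646 for IrxB.

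Of the base pairs covered in D1, 91.1% in IrxA and 93.1% in IrxB were also covered in A2a. The reverse share was 58.0% in IrxA and 67.1% in IrxB. Islands of D1 alone made up 38.6 kb of IrxA and 29.8 kb of IrxB, while islands of A2a alone made up 287 and 196 kb. The longest stretch without an island in either list was 35.0 kb in IrxA (chr13:73072001-73107000) and 38 kb in IrxB (chr8:92568801-92606800).

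Counting what lay inside the cluster, the 3 gene islands made up 16.5% of the island length of IrxA in A2a and 28.9% of its reads, and 18.0% and 33.1% in D1. In IrxB they made up 14.4% of the length and 22.7% of the reads in A2a, and 13.8% and 24.2% in D1. The span outside the gene islands was covered to 47.7% in IrxA and 64.2% in IrxB in A2a, and to 28.9% and 45.1% in D1. By their medians, the other islands were shorter and thinner than the gene islands. Their median was 4.80 kb and 62.8 reads per kb over IrxA and 4.80 kb and 68.3 over IrxB in A2a. In D1 it was 3.80 kb and 37.3 over IrxA and 4.20 kb and 39.4 over IrxB. The lengths were above the list medians of 3.6 and 3.0 kb. The densities were near or above the list medians of 62.5 and 37.2 reads per kb.

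Of the 180 D1 islands in the clusters with their flanks, 7 stood in the top 1% of the list by reads, and 6 of these were the Irx promoter islands. The seventh lay between *Irx1* and *Irx2*, at chr13:72285401-72309200. It was 23.8 kb long with 2105 reads (88.4 per kb). No annotated gene overlapped it, and no H3K4me3 peak lay in it. In A2a an island at chr13:72284801-72310800 covered it whole with 4071 reads over 26.0 kb (157 per kb), a density between those of *Irx4* and *Irx1*. It held 14.1 CG per kb in A2a, below the 15.2 of the lowest Irx island but above the list median.

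Of the 193 A2a islands, 11 stood in the top 1%, the 6 of the Irx genes, the one just described and 4 others. The 4 lay at chr13:72335401-72373600, over the pseudogene *Gm4052* and *Gm47836* (116 reads per kb), at chr8:91690001-91724800, over the noncoding *Gm36325* (108), at chr8:91850601-91885800, over *Gm28511* (89.5), and at chr8:92235801-92269800, over *Gm45334* (113). Each was 34.0 to 38.2 kb long, and D1 had 2 to 4 islands under each, with a combined 48.3 to 53.1 reads per kb. None of these islands held an H3K4me3 peak.

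**Figure D3:**
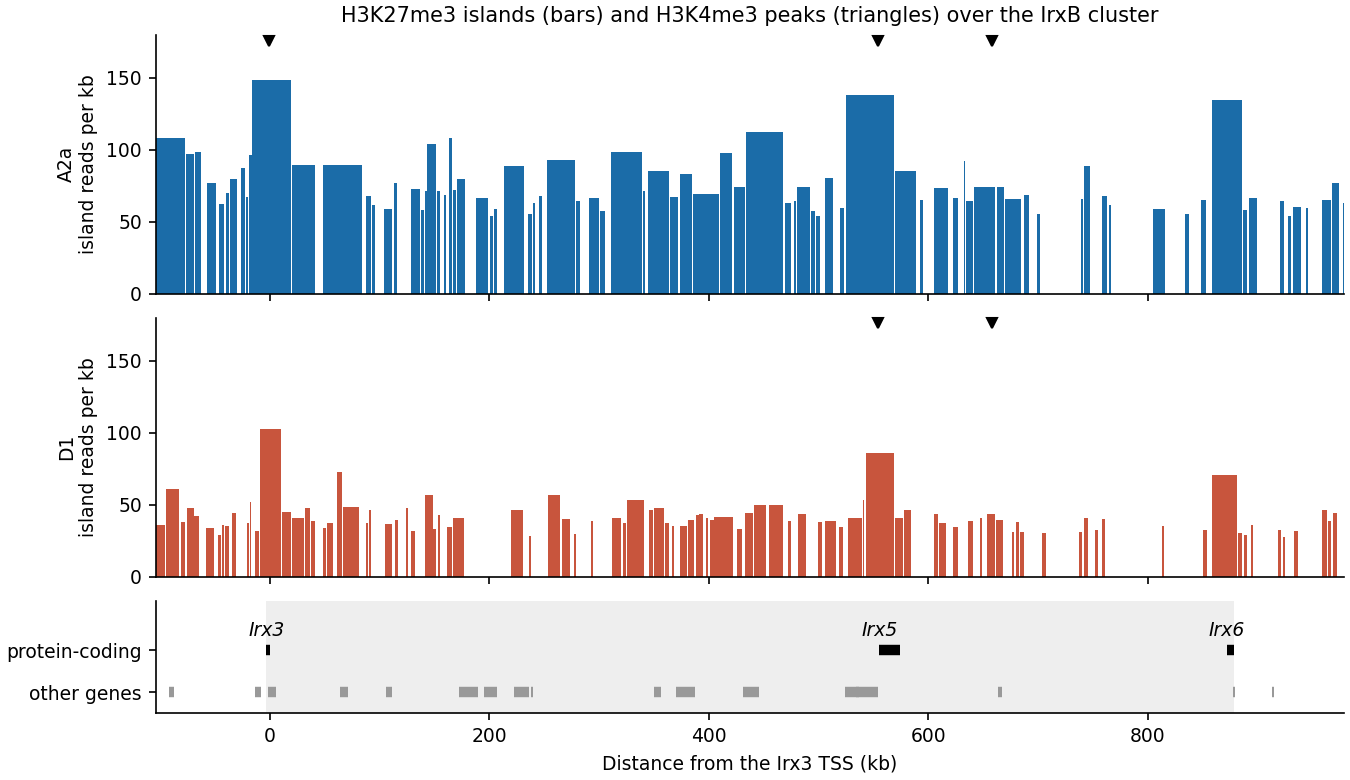
The same plot for the IrxB cluster, against distance in kb from the Irx3 TSS. The islands over Irx3, Irx5 and Irx6 are the densest of the region in A2a (135 to 149 reads per kb), and in D1 (70.8 to 103) 1 other island (72.6) is denser than that of Irx6, while islands fill 67.7% of the cluster in A2a and 48.8% in D1.

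**Figure D4:**
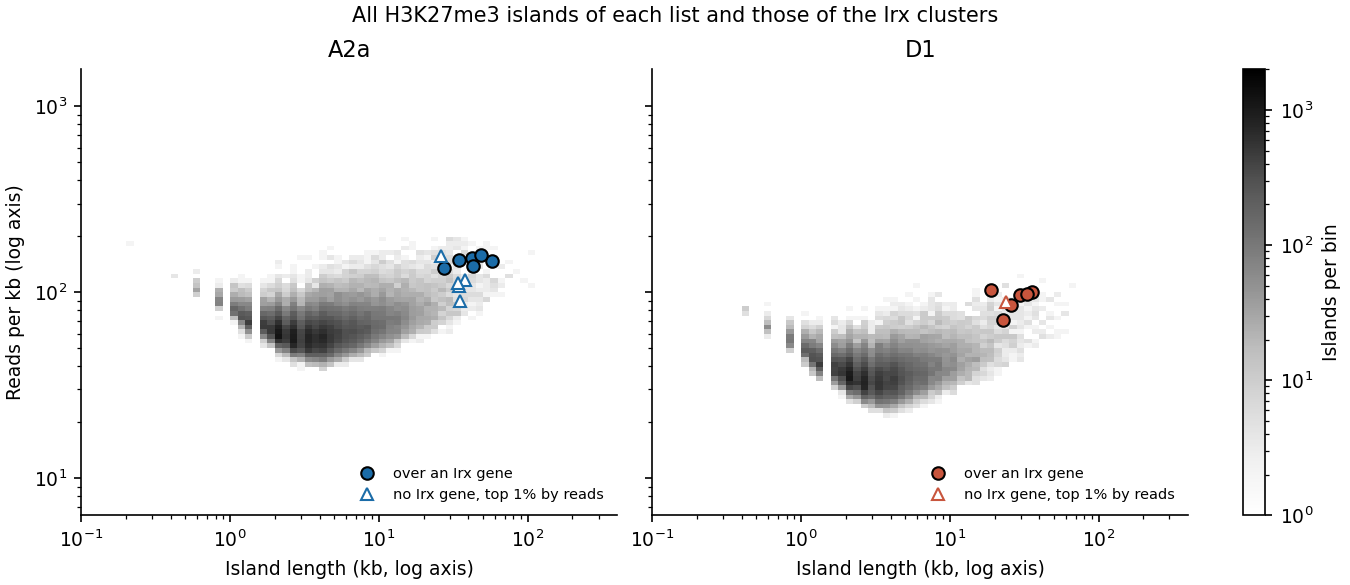
Reads per kb against length in kb (both axes logarithmic) for all 60191 A2a and 45760 D1 islands, as counts per bin in grey. Circles are the Irx promoter islands and triangles the other islands of the 2 clusters in the top 1% of the list by reads (5 in A2a, 1 in D1). The circles lie at the long and dense end of both lists.

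The coverage went on beyond the outer genes on all 4 sides. The 100 kb before *Irx3* were 81.2% covered in A2a and 62.6% in D1, more than the cluster itself, and the 100 kb after *Irx6* 49.0% and 30.6%. In IrxA the 100 kb on the *Irx1* side were 39.5% covered in A2a and 29.9% in D1, and those on the *Irx4* side 51.2% and 38%. These shares include the part of the outer gene's own island that reached into the flank. Outside that island, coverage in A2a and D1 was 78.5% and 60.5% before *Irx3* and 45.3% and 28.9% after *Irx6*. It was 31.8% and 21.2% on the *Irx1* side and 35.5% and 32.0% on the *Irx4* side. On the *Irx4* side lie the only other protein-coding genes of either region, *Ndufs6* and *Mrpl36*, which serve mitochondrial respiration and the mitochondrial ribosome and start beside each other on opposite strands. Their shared promoter had an H3K4me3 peak of 5.71-fold in A2a (−log10 q 102) and 7.47-fold in D1 (122), stronger by −log10 q than any peak inside the clusters. It held no island, the nearest being at 9.26 kb from the *Ndufs6* window in A2a and 8.46 kb in D1. Of the 14 other genes of the IrxA region, 12 had an island at the promoter in A2a and 10 in D1 and 0 had a peak. Of the 17 of IrxB, 16 and 14 had an island, and the 2 with a peak in A2a, *Irx3os* and *Crnde*, are those that share a start region with *Irx3* and *Irx5*. Among protein-coding genes 21.6% had an island in A2a and 15.3% in D1, and the share over other gene types was not taken. Islands covered 51.3% (A2a) and 33.3% (D1) of the IrxA region with its flanks and 67.2% and 48.4% of that of IrxB. Several of these other genes lay in the island of an Irx gene, so the counts are not a separate result.

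At the other TALE genes most promoters held an H3K4me3 peak and no island. Of 12 (the Meis, Pbx, Pknox and Tgif genes and *Mkx*), 3 had a promoter island in A2a and 3 in D1, while 12 had an H3K4me3 peak in A2a and 11 in D1. Among all protein-coding genes 21.6% (A2a) and 15.3% (D1) had an island, and 58.2% and 55.8% a peak. The island counts of this small group were thus not far from the share of all genes. The 3 with an island were *Mkx*, *Tgif1* and *Meis1*, the last named after its values were seen. *Mkx*, a factor of tendon, had an island of 18.4 kb with 3371 reads in A2a and 10.4 kb with 1397 reads in D1, together with a peak in both. *Tgif1*, a corepressor of SMAD signalling, had 21 kb with 2603 reads and 19.2 kb with 1211 reads, and a peak in A2a alone (−log10 q 6.74). *Pknox2* and *Tgif2*, which had no island, had peaks with a −log10 q of 141 and 31.9 in A2a and 63.5 and 6.86 in D1. All the Irx islands but that of *Irx6* had more reads in A2a than the *Mkx* island had in both lists together, and every one had more than *Mkx* in the same list. Per kb the *Mkx* island was denser than every Irx island, at 183 reads per kb in A2a and 134 in D1.

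The Hox genes, the other clustered homeobox family, were nearer to the Irx genes in promoter counts. All 39 had a promoter island in both lists, and 2 in A2a and 1 in D1 had an H3K4me3 peak. Their 4 clusters, of 96.8 to 174 kb, were covered to between 96.2% and 100% in A2a and between 87.9% and 100% in D1. The Irx clusters, many times longer, were covered in part, and their density over the covered length was lower than that of the Hox clusters (142 to 196 reads per kb in A2a, 68.7 to 100 in D1). The Irx gene islands alone, at 135 to 159 in A2a and 70.8 to 103 in D1, had values in much the same range as the Hox clusters. No test across mice stands behind these comparisons.

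**Figure D5:**
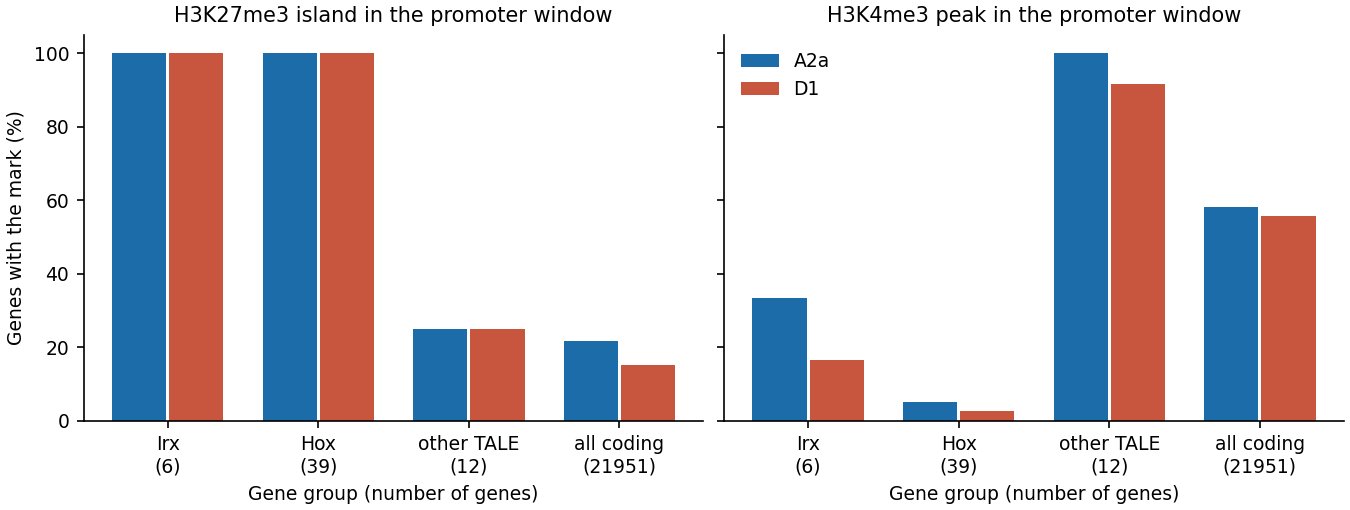
Percentage of genes with an H3K27me3 island (left) or an H3K4me3 peak (right) in the promoter window in the A2a (blue) and D1 (red) lists, for the 6 Irx genes, 39 Hox genes, 12 other TALE genes and all 21951 protein-coding genes. Islands are at all Irx and Hox promoters and at 3 of 12 other TALE promoters in each list, and peaks are at 2 (A2a) and 1 (D1) of the Irx promoters.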

How the data were processed

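CnR libraries of A2a and D1 nuclei were mapped by the authors to mm10 with Bowtie2 (version 2.1.0), filtered with SAMtools (version 0.1.19) and deduplicated with Picard (version 2.23.4), and the 2 replicates of each cell type and mark were pooled. The authors called H3K4me3 peaks with MACS2 (version 2.2.7.1, q-value threshold 0.01). The deposited values used are the fold enrichment over local background (a ratio), the −log10 q and the summit. The authors called H3K27me3 islands with SICER (version 2.0, window 200 bp, gap 600 bp, false discovery rate 0.01), and the deposited value is the count of reads in each island, without normalization; the control is not given in the sources used here. Reads per kb, percentiles within a list and covered lengths were computed here with Python (version 3.11.15) and pandas, with genes from GENCODE vM21 and CpG counts from GRCm38.p6. Reads of an island crossing a boundary were shared out by length. Counting intervals are exact Poisson ones, and those of ratios use the normal approximation on the log scale. Overlap procedures were tested on simulated intervals. Each list pools its replicates, so nothing was tested across mice. The other 20 samples were not analysed here. The genes, the groups compared and the rules for naming genes were chosen with earlier results of these data known. The genes named are the 6 Irx genes, the other protein-coding genes within 100 kb of a cluster and, of the other TALE genes, the first 2 and last 2 by total island reads, with ties in order of name. Alternatives changed the promoter window, TSS, overlap, thresholds, list sizes, merging, cluster bounds and scaling.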

Additional observations from a re-analysis of the deposited data

How the results depend on the processing

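The 24 counts, shares and densities were recomputed under 96 alternatives, 1 choice at a time. Of these, 74 stayed within 1.5 times (counts) or within the interval of the main value (other values). For densities and their ratios that is the counting interval. For coverage it is a binomial (Wilson) interval over windows of 200 bp. It takes the windows as independent, which neighbouring windows of an island are not. The 6 of 6 promoters with an island held in both lists under every alternative run for them (window, TSS, overlap, island length, list size). With 1 kb on each side of the TSS, the promoters with a peak, and with both marks, fell to 1 in A2a and 0 in D1, since the peak upstream of *Irx5* lies outside that window. With equal list sizes coverage of IrxA in A2a was 50.3%. Merging islands within 5 kb gave coverage of 62.5% (A2a) and 38.2% (D1) in IrxA and 77.5% and 58.5% in IrxB, with 72.6, 46.4, 75.7 and 39.4 reads per kb. With 100 kb on each side, IrxA had 88.4 reads per kb in A2a and 5 (A2a) and 4 (D1) peaks, and the A2a to D1 ratio of densities was 1.64 in IrxA and 1.87 in IrxB. Over base pairs that are islands in both lists it was 1.78 and 1.96. Another alternative, chosen after seeing the data, took each cluster's reads as a share of its list's island reads, without dividing by covered length. That turned the direction in both clusters, to 0.903 in IrxA and 0.907 in IrxB. No paired analysis was possible because each list pools its replicates, and for the same reason no replicate could be left out. Unknown library totals limit every comparison of read counts between A2a and D1.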
